A study of Mus musculus with 4 samples.

Results

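Wild-type T helper 17 (Th17) cultures kept at 37 °C were compared with wild-type cultures kept at the fever-range temperature of 39.5 °C, with 1 RNA-seq library at each temperature, 2 of the 4 libraries in the series. Both cultures were started from naive CD4+ T cells of C57BL/6 wild-type spleen and lymph node. They were activated and held for 3 days in vitro with interleukin-6 (IL-6) together with TGF-β1 (transforming growth factor β1). The other pair, carrying the label Smad4 knockout (KO), is described by the labels as Smad4-deficient and had the same cytokines, times and temperatures. The question was how a fever temperature alters the Th17 transcriptome. No label says whether the libraries came from separate mice or separate cultures, and with 1 library on each side no p-value can be given. Every ratio therefore has a 95% interval that covers counting error only, and the spread between cultures is unknown.

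Th17 cells are CD4+ helper cells that secrete IL-17A and IL-17F and defend barrier surfaces. IL-6 signals through STAT3 and TGF-β through SMAD proteins, and together they switch on the IL-17 genes. Cells exposed to heat can induce chaperones through heat shock factor 1. They can also engage p53, which restrains the cell cycle and promotes cell death, and the unfolded protein response (UPR), which matches folding capacity in the endoplasmic reticulum (ER) to secretory load.

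Levels are given in RPKM, that is, reads per unit of exon length and library size. The whole reads recovered from these values summed to between 18047293 and 18474056 in the 4 libraries, so recovered depth was nearly equal. Differences are given as log2(RPKM + 1) at 39.5 °C minus that at 37 °C, a scale that understates ratios at low levels, for 13715 of 19555 rows, those whose mean over the 4 libraries reached 1 RPKM. The T cell label held: Cd3e stood at 49.0 and 59.2 RPKM, Cd4 at 192 and 195 and Trac at 564 and 624 in WT at 37 and 39.5 °C. Marker lists of other cells were low but not empty. Summed B cell markers went from 17.1 to 13.7 RPKM, myeloid markers from 12.9 to 9.08, CD8 and natural killer markers from 5.01 to 5.60, stromal markers from 3.28 to 2.23 and γδ T cell markers from 0.352 to 0.358. Mast cell markers summed to 0.628 and 0.575 RPKM and erythroid markers to 0.539 and 0.616. Cd79a, part of the B cell receptor, was at 0.151 and 0.213 RPKM, the macrophage receptor Csf1r at 0.0674 and 0.127, and Tcrg-C1 was at 0 in both. In bulk RNA, fewer cells of a type and less RNA per cell cannot be told apart. Smad4 stood at 14.05 and 14.2 RPKM in the WT libraries and at 20.7 and 21.3 in the libraries labelled Smad4 KO. Its whole-gene level was thus not lower under that label. Whether part of the gene was deleted cannot be read from whole-gene values, and the second pair is named by its label throughout.

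At 39.5 °C, 272 rows (1.98% of those analysed) were past 2-fold, 200 (1.46%) on the higher and 72 (0.525%) on the lower side, around a median difference of −0.02 over all rows. Of all rows, 6376 lay above 0 and 7339 below. These shares are the base for every list count that follows. With shares this small, a short list with no member past 2-fold on a side says little about that list. The counting interval of the ratio lay wholly above 1 for 190 of the 200 and wholly below 1 for 61 of the 72. It lay wholly past 2-fold for 145 and 48. Fewer than 50 reads in the pair stood behind 24 of the higher and 16 of the lower rows. Higher calls were most frequent between 1 and 5 RPKM, with 99 of 4462 rows (2.22%), against 5 of 901 rows from 100 RPKM upward (0.555%). The median difference went the same way, from 0.06 between 1 and 5 RPKM to −0.15 from 100 RPKM upward. Of named genes near the line, Cd80 was just inside at 1.0 (0.549 and 2.10 RPKM) and Aspm just outside at 1.0 (1.31 and 3.61 RPKM). On the lower side Creld2 (−1.01), Mvd (−1.0) and Col4a1 (−1.0) were just inside and Ciart (−0.99) just outside.

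**Figure D1:**
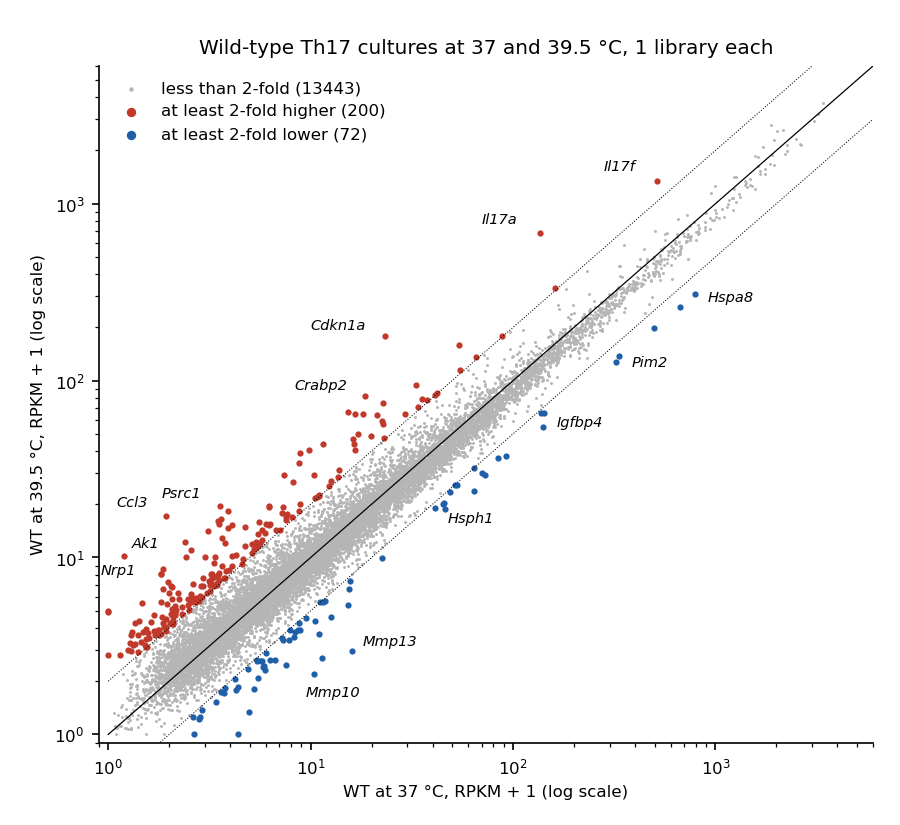
RPKM + 1 of each of the 13715 rows in the WT library at 37 °C (horizontal, log scale) and at 39.5 °C (vertical, log scale). The solid line marks equal levels and the dotted lines 2-fold; the 200 higher rows crowd towards low levels at 37 °C, while Il17a, Il17f and Cdkn1a stand out at high levels, with Hspa8 and Pim2 on the lower side.

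The signature cytokines of the lineage were among the genes furthest higher. Il17a stood at 134 RPKM at 37 °C and 686 at 39.5 °C, a ratio of 5.11 (95% interval 4.91 to 5.32). Il17f, its neighbour on the chromosome and a partner in the IL-17A/F heterodimer, stood at 516 and 1338 RPKM, a ratio of 2.59 (2.55 to 2.64). Of 16 measured Th17 factors and receptors, 11 lay above 0, with a median of 0.23. At least 2-fold higher were 3 (18.8%, against 1.46% of all rows), and none was 2-fold lower (0.525% of all rows). The 3 were the IL-1 receptor Il1r1 (2.90 and 13.8 RPKM), the transcription factor Bhlhe40 (53.1 and 158 RPKM) and the IL-23 receptor chain Il23r (2.25 and 6.66 RPKM). The IL-1 and IL-23 receptors are known to sustain inflammatory Th17 cells. Several upstream factors were almost level: Stat3 stood at 32.7 and 32.5 RPKM, Batf at 116 in both and Irf4, the highest of the list, at 499 and 456.

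Other cytokine genes were higher alongside the IL-17 pair. Of the 20 measured, 15 lay above 0, against 6376 of all 13715 rows, and the list median was 0.45. At least 2-fold higher were 7 (35%, against 1.46% of all rows), and none was 2-fold lower (0.525% of all rows). They included Il9 (10.5 and 42.8 RPKM), Tnfsf8, which encodes the CD30 ligand (6.40 and 28.4), Csf1, the macrophage growth factor (2.32 and 8.37), Tnfsf11, which encodes RANKL (6.28 and 18.2), and Lta, which encodes lymphotoxin α (160 and 333). Tnf (21.2 and 18.6 RPKM), Il2 (19.4 and 21.6) and Il10 (2.10 in both) differed little. Il22, an effector of many Th17 cells, was below the minimum at 0.0495 and 0.467 RPKM. The cytokines thus differed in size and not all in the same direction: Ltb, the partner of Lta, stood at 210 RPKM at 37 °C and 133 at 39.5 °C.

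All 7 measured chemokine genes lay above 0, 4 of them past 2-fold (57.1%, against 1.46% of all rows), with a median of 1.26. Ccl3, Cxcl3 and Cxcl10 were under 1 RPKM in both 37 °C libraries and reached the minimum mean through the 39.5 °C libraries. The count above 0 is thus partly built into the filter. Of the members under the minimum in WT, Cxcl16 (0.600 and 0.394 RPKM) and Ccl22 (0.0944 and 0.0891) were lower, and Ccl9, Cxcl2 and Ccl6 were higher. Ccl3, whose product attracts monocytes and T cells, had the largest difference of all rows, from 0.932 to 16.2 RPKM and a ratio of 17.4 (9.99 to 33.2). Its neighbour Ccl4 stood at 2.495 and 15.1 RPKM, and Xcl1, which attracts cross-presenting dendritic cells, at 7.77 and 33.1. Cxcl3, a neutrophil attractant, stood at 0.361 and 2.25 RPKM. Ccl20, the ligand of CCR6 made by Th17 cells themselves, was the most abundant, at 61.0 and 84.9 RPKM. Among 15 homing receptors, Cxcr6 (2.22 and 7.05 RPKM) and Cxcr3 (2.31 and 6.73) were past 2-fold, while Ccr6 differed less (28.3 and 33.5) and Ccr7 stood at 373 and 349.

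**Figure D2:**
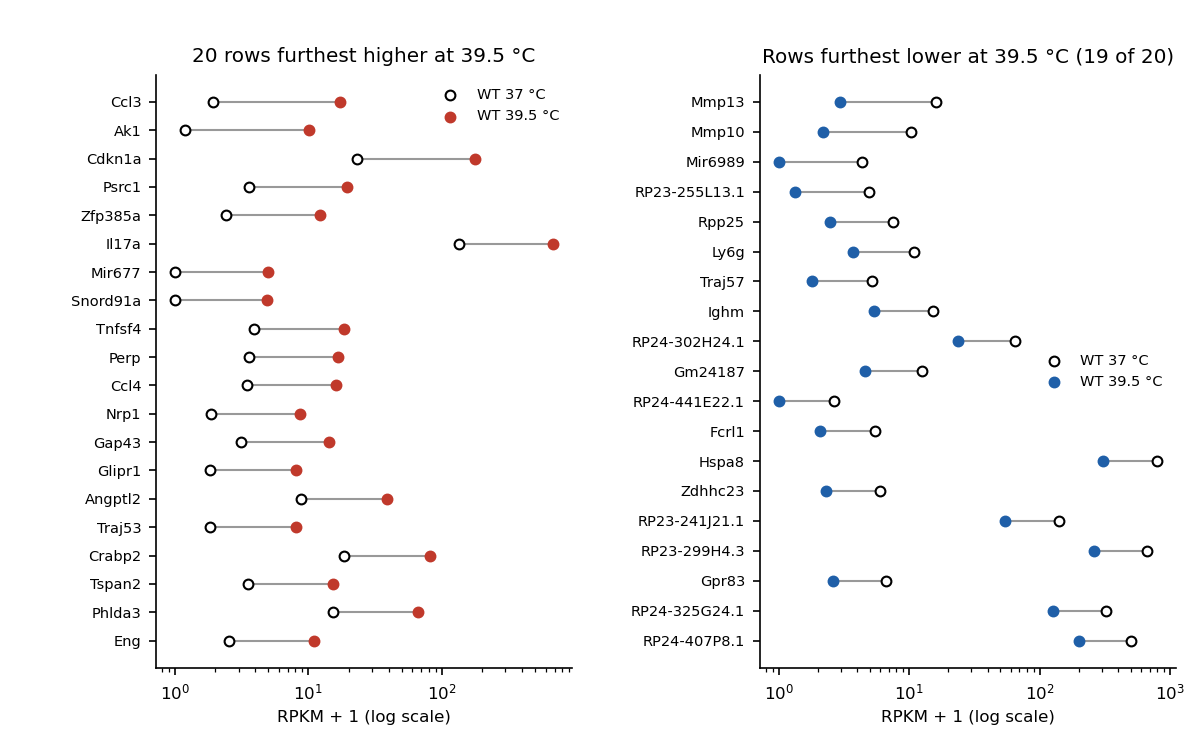
Levels in WT at 37 °C (open circles) and 39.5 °C (filled circles), as RPKM + 1 on a log scale, for the 20 rows furthest higher (left) and for 19 of the 20 furthest lower (right), ordered by the difference. Differences run from 2.10 to 3.16 in the higher set and from −1.32 to −2.42 in the lower set; Il17a and the lower rows near Hspa8 are the most abundant.

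Genes that p53 is known to activate formed the list with the most members past the line. Of 29 measured, 13 were at least 2-fold higher (44.8%, against 1.46% of all rows) and none lower (0.525% of all rows). In the list 25 lay above 0 and the median was 0.72, against −0.02 over all rows. Cdkn1a, which encodes the cyclin-dependent kinase inhibitor p21, stood at 22.3 and 178 RPKM, a ratio of 7.98 (7.45 to 8.56). Psrc1, a spindle gene, stood at 2.56 and 18.4 RPKM, Perp, a death-associated membrane protein, at 2.59 and 15.5, and Phlda3, an inhibitor of AKT, at 14.2 and 65.1. The BH3-only death genes Bbc3 (5.22 and 18.4 RPKM) and Pmaip1 (1.72 and 4.93) were the members of the BCL2 family past 2-fold. The survival genes Bcl2l1 (69.7 and 62.1) and Mcl1 (71.9 and 69.4) of that family were close to level. Its survival genes Bcl2 (4.20 and 6.62 RPKM) and Bcl2l2 (2.77 and 4.53) were higher by less than 2-fold. Of the 16 measured members of the family 9 lay above 0 and 7 below. The p53 gene itself, Trp53, stood at 91.7 and 84.3 RPKM, and Mdm2, which encodes the ligase that degrades p53, at 9.40 and 16.1. Within the list the range was wide: Bax, which opens the mitochondrial outer membrane, stood at 66.3 and 74.5 RPKM, and the repair gene Xpc at 4.79 and 2.92.

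Mitotic genes were higher together. All 35 measured lay above 0, against 6376 of all 13715 rows, with a median of 0.87. Past 2-fold were 7 (20%, against 1.46% of all rows). The difference was largest for Nusap1, a spindle protein (4.52 and 12.5 RPKM), followed by Hmmr (2.95 and 7.50), the kinase Nek2 (4.23 and 10.2) and cyclin B1, Ccnb1 (5.77 and 13.3). The smallest was Bub3, a checkpoint protein, at 27.6 and 30.5 RPKM. DNA replication genes differed less, with 24 of 30 above 0, none past 2-fold and a median of 0.15. Rrm2, the ribonucleotide reductase subunit, was the furthest (56.3 and 87.0 RPKM), whereas Mcm3, part of the replicative helicase, stood at 226 and 193. Replication-dependent histone genes lay above 0 in 39 of 44, with none past 2-fold and a median of 0.37; their near-identical copies share reads, so single members are uncertain. Higher Cdkn1a, an inhibitor of the cell cycle, thus stood beside higher mitotic transcripts in the same library.

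The heat shock list was not higher at 39.5 °C. Of 22 measured members none was 2-fold higher (1.46% of all rows) and 2 were 2-fold lower (9.09%, against 0.525% of all rows). In the list 19 lay below 0 and the median was −0.22, or −0.16 with each library scaled to the same recovered reads. Abundant rows lay below 0 in general, with a median of −0.09 from 20 to 100 RPKM and −0.15 from 100 RPKM upward. Hspa8, the constitutive HSP70 chaperone, stood at 795 RPKM at 37 °C and 307 at 39.5 °C, a ratio of 0.387 (0.381 to 0.392). Hsph1, an HSP110 exchange factor that works with HSP70, stood at 40.2 and 18.0 RPKM, a ratio of 0.448 (0.427 to 0.470). Hsp90ab1, the most abundant member, stood at 1559 and 1216 RPKM, Dnajb1, an HSP40, at 44.4 and 30.2, and Fkbp4, an HSP90 co-chaperone, at 210 and 142. The inducible HSP70 genes were barely detected: Hspa1b stood at 1.35 and 1.27 RPKM and Hspa1a, under the minimum, at 0.703 and 0.489, and the pair is nearly identical, so the split between them is uncertain. Hspa4l, an HSP110 relative, was the furthest member above 0, at 1.76 and 3.13 RPKM.

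Of 16 heat shock genes with an entry in a RefSeq table of promoters (GRCm38.p6, 250 bases before to 50 after each start), 4 held a heat shock element, searched on both strands as GAA, TTC and GAA with 2 bases between each (25%, against 0.662% of all 27025 genes). The 4 were Chordc1, Hspd1, Hspe1 and Hsph1. Since the list holds known heat shock genes, this share describes the list and not the effect of temperature. The match beside the start of Hsph1, on the minus strand at chr5:149636288-149636300, is shown because this gene was past 2-fold on the lower side.
Hsph1: TTCTGGAAAGTTC
Among genes past 2-fold with an entry, 0 of 119 on the higher side and 2 of 31 on the lower side (Hsph1 and Lingo3) held the element, against 0.611% of all analysed genes.

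In all, 9 clone-named rows averaging 20 RPKM or more were also 2-fold lower, and 6 of these followed Hspa8. Their level divided by that of Hspa8 varied by less than 5% (coefficient of variation) over the 4 libraries, which held for only 9 of 13715 rows (0.0656%), Hspa8 itself included, against a median of 48.7%. RP23-299H4.3, for example, stood at 0.837, 0.847, 0.845 and 0.830 of Hspa8 in the 4 libraries, the WT pair first. These rows have no match by name in GENCODE vM21, and whether they share reads with Hspa8 was not tested. They remain among the 72 lower rows, 21 of which have no such match.

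ER folding and UPR genes were lower together. Of 23 measured, 1 was 2-fold lower (4.35%, against 0.525% of all rows) and none higher (1.46% of all rows). In the list 19 lay below 0, against 7339 of all 13715 rows, and the median was −0.36. Creld2, a secreted UPR target, stood at 63.3 and 30.9 RPKM, a ratio of 0.488 (0.448 to 0.532). Sdf2l1, which helps the ER HSP70, stood at 137 and 71.7 RPKM, Calr, which encodes the glycoprotein chaperone calreticulin, at 607 and 374, and the disulfide isomerase Pdia4 at 85.7 and 54.4. The master chaperone Hspa5 (BiP) stood at 233 and 159 RPKM and Xbp1, a UPR transcription factor, at 76.4 and 51.0. Edem1, which feeds misfolded glycoproteins to degradation, was the exception furthest above 0, at 14.9 and 22.2 RPKM.

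The promoters of this list were searched as well. Since the list holds known UPR genes, its share with a UPR element describes the list and not the effect of temperature. The ER stress response element, searched on both strands of the same 300-base windows as CCAAT and CCACG with 9 bases between them, was found in 9 of the 20 members with an entry (45%), in 13 of the 7203 analysed genes with one and in 0.137% of all genes. The 9 were Calr, Canx, Creld2, Derl3, Dnajc3, Hsp90b1, Hspa5, Pdia6 and Syvn1, and all 9 lay below 0 in WT, as did 19 of the 23 members of the list and 7339 of all 13715 rows. Of the other 4 analysed genes with the element, Adcy3, Alg12 and Pan2 lay below 0 and Hnrnpa3 above. The 250 bases before the start of 4 of them show where the matches, in capitals, lie. Hspa5 is at chr2:34771840-34772089 on the plus strand and Creld2 at chr15:88819396-88819645 on the plus strand. Calr is at chr8:84846932-84847181 and Hsp90b1, with 2 matches, at chr10:86705445-86705694, both on the minus strand.
Hspa5: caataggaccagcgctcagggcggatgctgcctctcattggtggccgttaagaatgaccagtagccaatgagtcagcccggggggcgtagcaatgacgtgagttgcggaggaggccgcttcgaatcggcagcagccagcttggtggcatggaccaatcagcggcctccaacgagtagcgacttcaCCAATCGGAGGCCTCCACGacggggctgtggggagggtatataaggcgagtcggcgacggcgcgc
Creld2: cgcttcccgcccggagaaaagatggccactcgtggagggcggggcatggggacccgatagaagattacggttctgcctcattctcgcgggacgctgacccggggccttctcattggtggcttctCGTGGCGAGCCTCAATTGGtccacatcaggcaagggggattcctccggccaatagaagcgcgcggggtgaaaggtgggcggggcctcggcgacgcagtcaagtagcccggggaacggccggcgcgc
Calr: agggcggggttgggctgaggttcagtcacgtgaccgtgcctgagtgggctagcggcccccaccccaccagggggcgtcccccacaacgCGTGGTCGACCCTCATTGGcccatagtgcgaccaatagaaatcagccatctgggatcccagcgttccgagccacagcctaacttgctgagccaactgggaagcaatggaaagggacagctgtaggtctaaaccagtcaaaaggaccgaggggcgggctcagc
Hsp90b1: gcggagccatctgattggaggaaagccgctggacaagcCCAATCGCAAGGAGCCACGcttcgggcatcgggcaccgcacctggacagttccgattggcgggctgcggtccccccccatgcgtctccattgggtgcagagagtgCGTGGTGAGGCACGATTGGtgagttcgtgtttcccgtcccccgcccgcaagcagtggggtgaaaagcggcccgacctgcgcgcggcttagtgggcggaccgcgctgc
The match in Hspa5 lies from 65 to 47 bases before the start, nearer than the matches of Creld2 (126 to 108) and Calr (162 to 144). A match in these letters is a description of the window, and no factor was measured at these promoters.

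**Figure D3:**
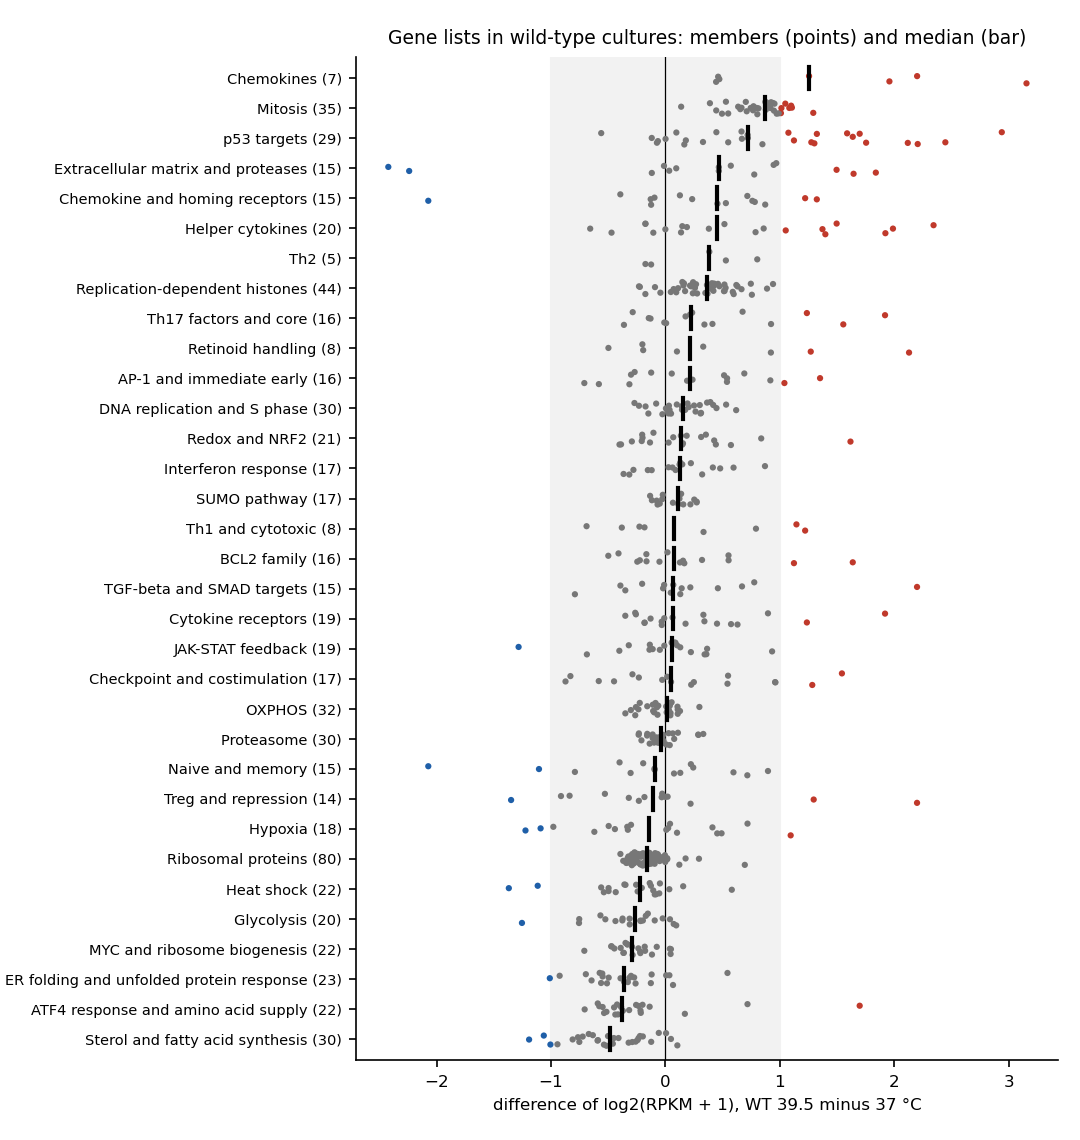
Difference of log2(RPKM + 1), WT at 39.5 minus 37 °C, for each measured member (points) of 33 gene lists, with the list median as a bar and the number measured in parentheses. Red and blue points are past 2-fold and the shaded band holds the rest; chemokines, mitosis and p53 targets sit highest and sterol synthesis, the ATF4 response and the ER list lowest.

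Lipid synthesis had the lowest median of the lists with at least 5 measured members. Of 30 sterol and fatty acid genes, 27 lay below 0, 3 were 2-fold lower (10%, against 0.525% of all rows) and the median was −0.48. The desaturase Scd1 stood at 6.81 and 2.42 RPKM, its relative Scd2 at 136 and 64.6, and Mvd, which makes isopentenyl diphosphate for sterols, at 50.9 and 24.9. Acly, which supplies acetyl-CoA, was the furthest above 0, at 117 and 125 RPKM.

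Genes of growth metabolism were lower by smaller steps. Of 20 glycolysis genes 17 lay below 0 (median −0.26), with Aldoc past 2-fold (5.28 and 1.63 RPKM), the glucose transporter Slc2a1 at 73.3 and 43.0 and Ldha, lactate dehydrogenase, at 666 and 573. Of 22 genes of the ATF4 response and amino acid supply 19 lay below 0 (median −0.38), among them Shmt2, a serine-using folate enzyme, at 223 and 149 RPKM. Sesn2, which also counts among the p53 targets, was the member past 2-fold on the higher side, at 7.19 and 25.6 RPKM. Myc, the growth regulator, stood at 483 and 295 RPKM, and 19 of 22 Myc and ribosome biogenesis genes lay below 0 (median −0.29). Bop1, needed to mature the large ribosomal subunit, stood at 148 and 106 RPKM. With each library scaled to the same recovered reads, the medians of these 3 lists were −0.20 (glycolysis), −0.31 (ATF4) and −0.22 (Myc). All rows from 20 to 100 RPKM had a median of −0.09 as deposited, so small negative medians of abundant lists are not read as shifts of their own. Ribosomal protein genes lay below 0 in 74 of 80, with a median of −0.16. That is near the median of −0.15 of all 901 rows from 100 RPKM upward. With each library scaled to the same recovered reads, the ribosomal median was −0.095 and 15 members lay above 0. Nuclear respiratory chain genes split evenly, with 18 of 32 above 0 and a median of 0.02. Hypoxia genes split 9 and 9, with Vegfa (7.32 and 2.56 RPKM) and Ak4 (14.7 and 6.37) past 2-fold on the lower side and Ndrg1 (1.83 and 5.05) on the higher.

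The lower calls held protease genes at their head. Mmp13, a collagenase, stood at 14.95 and 1.98 RPKM, a ratio of 0.132 (0.106 to 0.163), and Mmp10, a stromelysin, at 9.40 and 1.20. Igfbp4, high in naive T cells, stood at 141 and 65.0 RPKM, while Tcf7 (174 and 163) and Lef1 (16.5 and 14.3), factors of the naive state, differed little. In the list of regulatory T cell genes, Foxp3, the lineage factor, stood at 7.80 and 5.10 RPKM, a ratio of 0.654 (0.574 to 0.745), and Gpr83 at 5.69 and 1.63. Nrp1 (0.870 and 7.59 RPKM) and the ectonucleotidase Nt5e (5.31 and 14.5) of the same list were past 2-fold the other way, so its members did not share a direction. Pim2, a survival kinase induced by STAT5, stood at 334 and 137 RPKM. In the same JAK-STAT list Bcl3 (48.5 and 29.8 RPKM), Stat5a (63.1 and 47.5) and Pim3 (59.6 and 47.5) were lower by less than 2-fold. The STAT-induced inhibitors Socs3 (5.37 and 5.84) and Cish (27.9 and 36.3) were not lower. Of its 19 measured members 10 lay above 0 and 9 below. Ighm (14.3 and 4.39 RPKM) and Ly6g (9.97 and 2.69), markers of B cells and neutrophils, also belonged to the lower rows, while Igkc, the light chain constant gene, stood at 2.37 and 9.05. The part of other cells in these values was not tested.

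Costimulatory and checkpoint genes did not share a direction. Cd40lg, which helps B cells, stood at 16.1 and 48.9 RPKM and Pdcd1, which encodes PD-1, at 18.9 and 47.5, both past 2-fold. Lag3 (96.1 and 188 RPKM) and Tigit (7.41 and 15.4) were just under the line. Cd5, a brake on antigen receptor signals and the most abundant of the list at 37 °C, stood at 731 and 488 RPKM. Among antigen receptor genes Cd247, the ζ chain, stood at 21.4 and 58.4 RPKM and Cd6 at 467 and 270, while Trac and Trbc2 were close to level. Other single genes past the line included Crabp2, a retinoic acid carrier (17.6 and 80.6 RPKM), Lgals3, which encodes galectin-3 (17.1 and 63.8), and Atf3, a stress-induced factor (0.484 and 2.79).

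Signalling lists outside the cytokine genes were mixed. Of 16 AP-1 and immediate-early genes 10 lay above 0 (median 0.21), with Atf3 and Klf6 (9.94 and 21.5 RPKM) past 2-fold and Junb nearly level (394 and 361). Of 15 TGF-β and SMAD target genes 9 lay above 0 (median 0.07): Ski, a corepressor of SMADs, stood at 64.4 and 103 RPKM, Smad7, the inhibitory SMAD, at 3.97 and 4.14 and Id3, an inhibitor of E proteins, at 15.9 and 8.79. Of 19 JAK-STAT genes 10 lay above 0 (median 0.05), and Stat4, which mediates IL-12 signals, stood at 3.02 and 6.67 RPKM. The defining factors of other helper lineages were at low levels: Tbx21, the Th1 factor, stood at 0.419 and 1.46 RPKM, a ratio of 3.48 (2.07 to 6.11), and Gata3, the Th2 factor, at 0.662 and 1.90, a ratio of 2.87 (2.06 to 4.06). Other members of the Th1 and Th2 lists were higher at both temperatures, such as Ccr4 (90.9 and 83.3 RPKM) and Ctsw (48.3 and 61.1). Nkg7, a cytotoxic granule gene, was past 2-fold at 3.06 and 7.99 RPKM.

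Several lists had few members past 2-fold. Interferon response genes had 12 of 17 above 0 and a median of 0.12, SUMO pathway genes 10 of 17 and 0.11, and redox genes 13 of 21 and 0.14, with Gstt3, a glutathione transferase (0.814 and 4.57 RPKM), the redox member past 2-fold. Proteasome genes had 9 of 30 above 0 and a median of −0.04, whose sign turned under another scaling. Of the 4 cold-inducible genes 3 lay above 0 (median 0.25): Rbm3 stood at 29.2 and 26.8 RPKM, Cirbp at 8.88 and 10.3, Srsf5 at 21.8 and 27.1 and Rbmx at 8.85 and 12.9. Mitochondrially encoded transcripts had a median of 0.22; mt-Cytb, a subunit of respiratory complex III, stood at 1883.5 and 2769 RPKM, while mt-Co1 stood at 3212.8 and 3197.9.

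The 20 rows furthest from 0 on each side also held genes outside these lists. On the higher side Ak1 had a ratio of 48.1 (25.1 to 106), Zfp385a, a zinc finger protein, stood at 1.40 and 11.3 RPKM, and Tnfsf4, which encodes the OX40 ligand, at 2.89 and 17.4. Gap43, known from growing axons, stood at 2.13 and 13.2 RPKM, Glipr1 at 0.818 and 7.08, the secreted protein Angptl2 at 7.87 and 38.2 and the tetraspanin Tspan2 at 2.54 and 14.4. These were moderately expressed at most at 37 °C, Angptl2 being the highest of the 7 there. On the lower side stood Rpp25, a subunit of RNase P (6.56 and 1.46 RPKM), the Fc receptor-like gene Fcrl1 (4.49 and 1.09) and the palmitoyl transferase Zdhhc23 (4.94 and 1.31). Short RNAs and receptor segments among these rows rested on few reads. Snord91a had 0 reads at 37 °C and 7 at 39.5 °C, Mir677 had 0 and 3, Traj53 had 1 and 9 and Mir6989 had 4 and 0, and no fold is given for them.

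Some genes past 2-fold came next to each other in chromosome order, counting only analysed genes with a position. Of 9746 such genes (GENCODE vM21, build GRCm38, the reference behind mm10), 168 were at least 2-fold higher and 51 lower. Of their 9724 adjacent pairs, 10 were both higher, 2 both lower and 2 opposite. How many pairs gene order alone would give was not tested. Gaps between members reached 473288 bases, for Atp1b1 and Xcl1. Il17a (chromosome 1, 20730905 to 20734496) and Il17f (20777146 to 20790617) lie 42649 bases apart, and Ccl3 and Ccl4 on chromosome 11 are separated by 13228 bases. Ak1 (0.191 and 9.17 RPKM), an adenylate kinase, and Eng (1.56 and 9.97), a TGF-β co-receptor, are 11536 bases apart on chromosome 2. Batf3 with Atf3 and Il1r2 with Il1r1 were further higher pairs. Mmp13 with Mmp10, 219020 bases apart on chromosome 9, was among the lower pairs. Members of such a pair can share family or location and are not treated as independent.

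The pair labelled Smad4 KO shares no library with the WT pair and gives the same contrast a second time under another genotype label. There, 228 rows (1.66%) were past 2-fold, 103 (0.751%) on the higher and 125 (0.911%) on the lower side. Of the 200 rows higher in WT, 175 had the same sign and 46 were also 2-fold higher; of the 72 lower rows, 63 had the same sign and 19 were also 2-fold lower. The WT higher rows had a median of 1.24 in WT and 0.56 in the other pair, and the lower rows −1.19 and −0.71. Since the rows were picked by their WT values, a smaller median in the other pair is built into the choice.

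Gene by gene, the pairs were alike for some members and not for others. Il17a stood at 32.6 RPKM at 37 °C in the pair labelled Smad4 KO and had a ratio of 2.45 there; Crabp2 (2.10) and Il9 (1.98) had differences close to those in WT (2.13 and 1.92). Cdkn1a was already at 137 RPKM at 37 °C under the Smad4 KO label and stood at 130 at 39.5 °C, a ratio of 0.950 (0.914 to 0.987). Mmp13 had −0.13 there, beside −2.42 in WT, Hsph1 −0.13 beside −1.12, Lgals3 −0.15 beside 1.84 and Bhlhe40 0.29 beside 1.56. By lists, mitosis was above 0 in all 35 members of both pairs (medians 0.87 and 0.48), and the ER list was lower in both (−0.36 and −0.70). The p53 median was 0.72 and 0.26, the heat shock median −0.22 and −0.01, the sterol median −0.48 and −0.16 and the Myc and ribosome biogenesis median −0.29 and 0.09. None of these differences between the pairs was tested, because neither pair has a replicate.

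**Figure D4:**
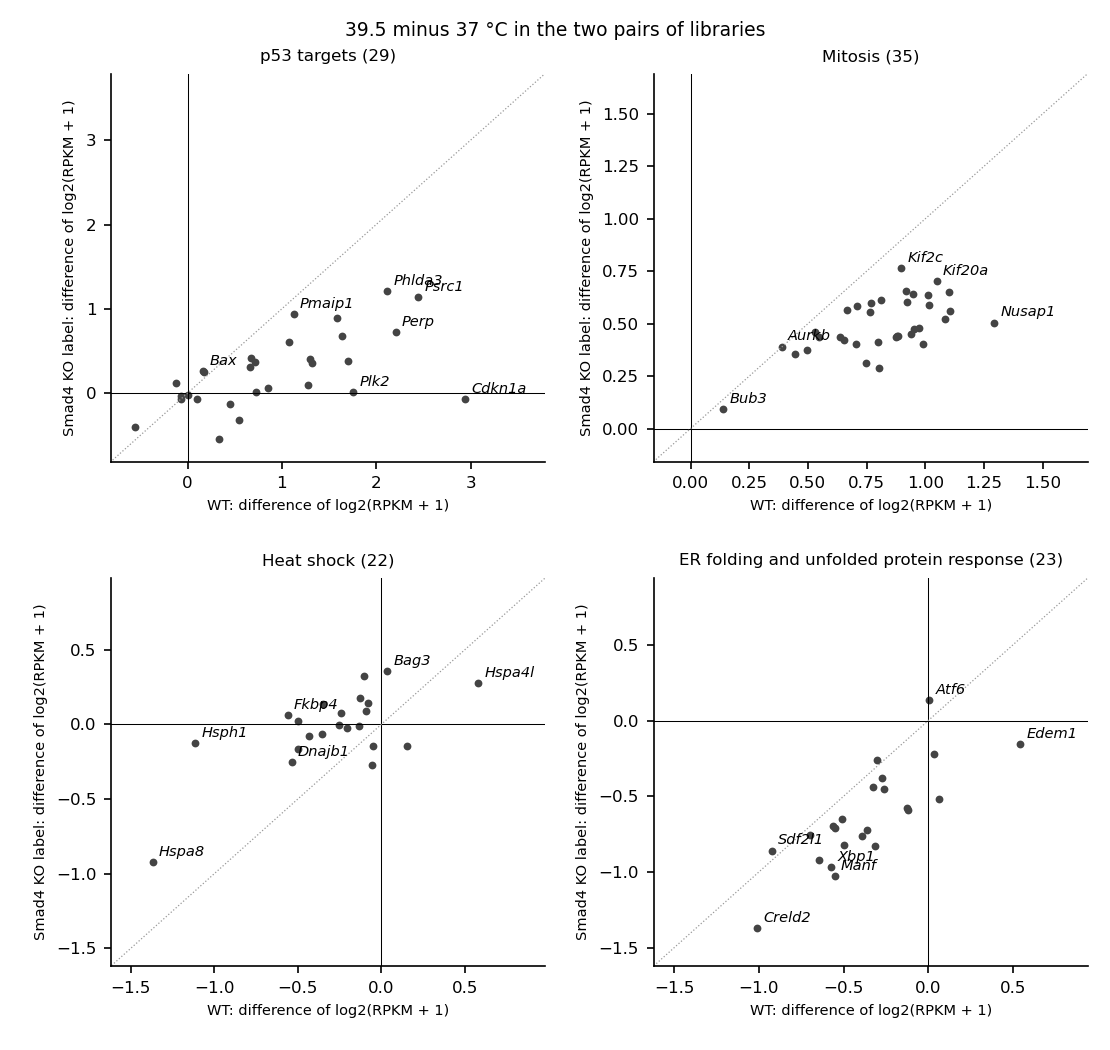
Members of 4 lists plotted by their difference of log2(RPKM + 1), 39.5 minus 37 °C, in the WT pair (horizontal) and in the pair labelled Smad4 KO (vertical); the dotted line marks equal differences and the solid lines 0. Mitotic genes lie above 0 on both axes, ER genes mostly below 0 on both, and Cdkn1a and Hsph1 sit far from 0 in WT and near it in the other pair.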

How the data were processed

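The genotype and treatment labels gave the groups. The authors deposited 1 table of RPKM values per library, with 19555 rows. The submitters' processing notes name build mm10 and, as tools, edgeR, Subread with featureCounts, Bowtie2 and Trim Galore 0.4.4. The annotation release and strandedness were not given in the sources used here, so antisense and overlapping genes are uncertain. RPKM values are not counts, so no count test was run. Whole reads behind each value were recovered in 19550 rows, in 12053 of them at the GENCODE vM21 exon length. In the other 7497 rows the smallest length that gave whole reads in all libraries was taken. Reads there can be too few, which reaches the totals, the read counts and the intervals. On simulated tables, 95.5% of 3955 rows without an annotated length and with 10 or more reads had their true reads recovered. The totals that the RPKM values imply were 1.01, 1.06, 0.955 and 0.997 times the recovered reads, so the deposited values carry a further scaling. Intervals of RPKM ratios are exact Clopper-Pearson 95% intervals given the summed reads of the pair. Reads amplified by PCR and lacking molecular identifiers do not count molecules independently, so they cover counting error only. On simulated libraries of 9543 unchanged genes with an annotated length, counting noise alone put 19 past 2-fold. The 3969 analysed rows without a GENCODE name and the spread between cultures were not simulated. The 19 is therefore not a rate of false calls among the 272 rows. Rows at 2-fold were counted on log2(RPKM + 1) at a minimum mean of 1 RPKM over the 4 libraries.

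The members and the gene lists were chosen with earlier results of these data known, so a list is described by its counts and median and not tested. Genes named by rule were the 20 furthest rows each way, the 3 rows each side of the 2-fold line, the 15 most abundant rows, up to 4 members per list with the largest difference plus its most abundant member, and a set of 8 fixed genes; others named were chosen after their values were seen. Pseudocount, minimum level and scaling were varied. Some genes are not reported here.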

Additional observations from a re-analysis of the deposited data

Results flagged for a closer look

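The following 3 genes were at least 2-fold different between temperatures in WT and at least 2-fold the other way in the pair labelled Smad4 KO; the difference between the pairs was not tested. Ndrg1, a hypoxia-responsive gene, had a log2(RPKM + 1) difference of 1.10 in WT (220 and 643 reads at 37 and 39.5 °C) and −1.59 in the other pair (2199 and 680 reads). Gm25432 had 1.22 in WT and −1.02 in the other pair, on 4 to 14 reads in each library. Traj52, a T cell receptor joining segment, had −1.05 in WT and 2.0 in the other pair, on 2 to 13 reads in each library. Counting error alone is wide at such read numbers for the last 2 genes.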

How the results depend on the processing

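The counts past 2-fold depended most on how low levels were treated. In WT 200 higher and 72 lower rows became 391 and 165 with a pseudocount of 0.1 RPKM and 99 and 45 with a minimum mean of 5 RPKM; in the pair labelled Smad4 KO 103 and 125 became 221 and 237, and 50 and 54. Other settings gave 168 to 241 higher and 51 to 106 lower rows in WT, or 288 higher with a pseudocount of 0.5 RPKM. Scaling each library to the same recovered reads gave 241 higher and 61 lower, 79.8% of the calls being higher against 73.5% as deposited. It moved the median of all rows from −0.02 to 0.03 and turned the sign of 1 list median, that of the proteasome (−0.04 to 0.02). With a minimum mean of 5 RPKM the medians of the Th1 (−0.18), BCL2 family (−0.05) and retinoid (−0.05) lists were below 0. The following 2 alternatives were added after seeing the data: the rows with a GENCODE vM21 name (168 and 51 in WT) and an interval wholly past 2-fold (175 and 58). No paired analysis was possible because each group has 1 library. Leaving out a library leaves no comparison. Genes with few reads, such as Mir677 (3 reads in WT at 39.5 °C, none at 37 °C), are limited by depth.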
